A study of Arabidopsis thaliana with 12 samples.

Results

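The genes described here are 312 nuclear genes of Arabidopsis thaliana whose transcripts were more abundant in the mutant rrc1-3 than in the wild type Col-0 in darkness and were then lowered in rrc1-3 by red light. They were selected on 2 of the authors' deposited expression tables, by a ratio of at least 1.5 for rrc1-3 over Col-0 in the dark and by one below a limit just under 0.67, between the 0.6668 of the last member and the 0.6671 of the next gene, for rrc1-3 in red light over rrc1-3 in the dark. Both tables together held 2291 nuclear genes, of which 1486 (64.9%) met the first ratio and 473 (20.6%) the second. Of the 1486 genes raised in dark-grown rrc1-3, 760 were raised further in red light by the same factor, 414 changed with light by less than the ratios of the rule and the 312 lay in the opposite direction. The 2 ratios that chose the genes are given below as a description and carry no test.

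RNA depleted of rRNA from whole seedlings was sequenced in 12 libraries, 3 for each of 4 groups. These were red light-treated rrc1-3, dark-grown rrc1-3, red light-treated Col-0 and dark-grown Col-0. All seedlings grew for 4 days in the dark on MS medium, and the red light groups then received 3 h of red light at 7 µmol per m2 per s. The mutant is in the Col-0 background, and the labels give a single allele and do not say whether libraries came from separate cultures, so p-values measure the spread between these libraries, which may be technical. Expression is given as FPKM, in which fragments are counted relative to transcript length and library size, with a single value per group deposited by the authors. No SD or depth can therefore be attached to an FPKM value. In bulk seedlings, fewer cells of a type and less RNA per cell cannot be told apart.

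RRC1 encodes an SR-like RNA-binding protein of the spliceosome, and loss of its function weakens responses to red light in Arabidopsis. A seedling in darkness follows skotomorphogenesis: its hypocotyl elongates by loosening the cell wall, its cotyledons stay closed, and an apical hook is held by ethylene, auxin and gibberellin. Red light acts through phytochromes, which remove the PIF transcription factors, and genes of elongation and of the hook are then shut down while the photosynthetic machinery is built.

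The mutant allele was visible in all 12 libraries in the retention of an RRC1 intron, that is, the share of reads that cross its boundaries unspliced. Retention was 97.6%, 93.2% and 88.7% in rrc1-3 in red light and 88.6%, 98.4% and 89.9% in rrc1-3 in the dark, against 0.602%, 3.60% and 4.74% in Col-0 in red light and 3.46%, 4.95% and 3.24% in Col-0 in the dark. Each library thus carried the RRC1 splicing of its labelled genotype. None of 15 marker genes for leaf, root hair, seed or xylem was among the 312. Of the markers, 2 of 2 for leaf, 3 of 3 for root hair, 3 of 7 for seed and 3 of 3 for xylem were listed higher in dark-grown rrc1-3, and none lower. Their summed FPKM over the listed markers in rrc1-3 and Col-0 in the dark was 3639 and 1050 for leaf, 7.74 and 2.70 for root hair, 3.97 and 1.48 for seed, and 50.3 and 28.8 for xylem. The part of these tissues in the results below was not tested.

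The median ratio of the 312 genes was 2.18 in the dark, with a range of 1.502 to 35.0, and 78 genes were over 3-fold. Their median light ratio in rrc1-3 was 0.477, with a range of 0.0240 to 0.6668, and 57 genes were at or under 0.25. The genes were less abundant than the rest: the median was 6.13 FPKM in rrc1-3 and 2.61 FPKM in Col-0 in the dark, against 11.6 and 8.79 FPKM over the 2291 genes. In rrc1-3 in the dark 43 genes were under 1 FPKM and 27 at or over 100 FPKM. Multiplying the 2 ratios set rrc1-3 in red light against Col-0 in the dark, and the median was 1.01, with 147 genes under 1 and 165 at or over 1. Both ratios of the rule enter this product and share the dark rrc1-3 libraries, so a value near 1 follows largely from the rule.

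**Figure D1:**
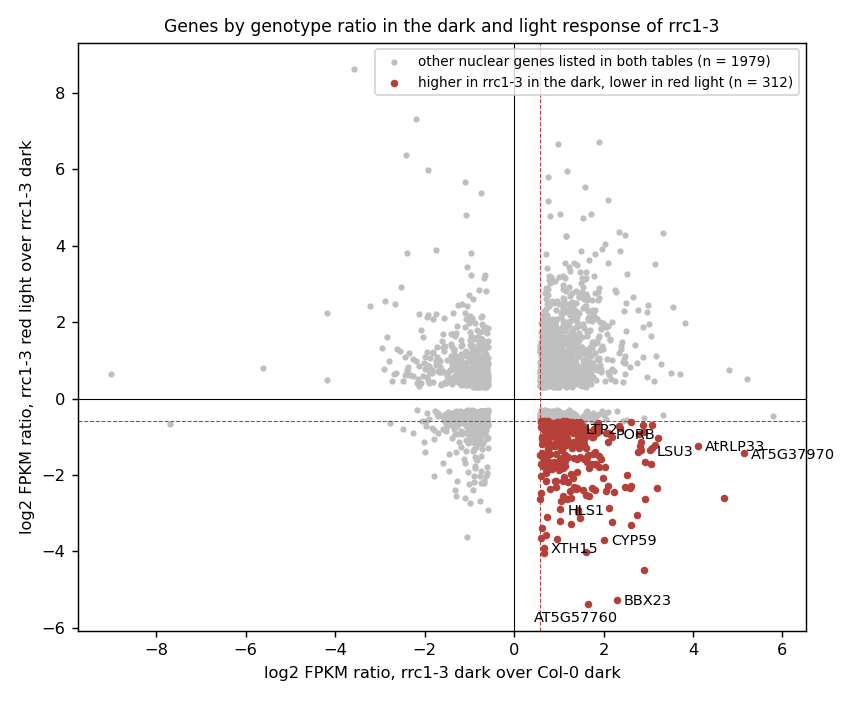
Each point is a nuclear gene listed in both tables, placed by its log2 FPKM ratio of rrc1-3 over Col-0 in the dark (horizontal) and of rrc1-3 in red light over rrc1-3 in the dark (vertical); dashed lines mark the ratios of the rule. The 312 selected genes (red) fill the lower right corner, while the largest block of genes raised in the mutant lies above the horizontal axis; the empty bands near both axes arise because the tables list called genes alone.

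At the edge of the dark ratio lay EXPA9 at 1.502, XYL1 at 1.504 and NPSN11 at 1.510. Among genes that met the light ratio, the next outside it were emb1303 at 0.6682, AT1G56220 at 0.6680 and ZPR1 at 0.66704. The dark table lists no ratio between 0.6689 and 1.4955, and the genes between 1.4955 and 1.5 did not meet the light ratio. At the edge of the light ratio lay AT1G18415 at 0.6668, AT3G51075 at 0.6660 and NPSN11 at 0.6644, and just outside it AT2G34700 at 0.6671, ZHD10 at 0.6690 and SGS3 at 0.6690.

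The genes were spread over all nuclear chromosomes, with 79, 41, 47, 60 and 85 on chromosomes 1 to 5. 9 pairs of adjacent genes held 17 members, among them the cellulose synthase-like pair CSLB1 and CSLB2 and the run AT1G06330, AT1G06340 and ADS4. HSFA3 and CTR1 stood 33 bases apart. Of the 312, 299 were protein coding and 6 were transposable element genes. Another annotated gene lay within the locus of 65 genes (20.8%, against 22.1% of the 2291), and reads of such overlapping genes may be shared because no strand is stated. Their transcripts were short in introns. The median gene had 1 intron and 100 genes (32.1%) had none, against 2 introns and 22.8% without over all 2291 genes and 3 introns and 18.3% without in the other genes raised in dark-grown rrc1-3. Median exon length was 1725 bases, against 1620 and 1831 bases in those sets.

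The ethylene pathway of the apical hook was represented by 6 genes of a list of 18. Ethylene is made from its precursor ACC by ACS and ACO enzymes, sensed by receptors that keep the kinase CTR1 active, and relayed by EIN3, which the F-box protein EBF2 degrades. For synthesis, ACS5 had 33.8 FPKM in rrc1-3 and 20.3 FPKM in Col-0 in the dark, and ACO1 had 5.66 and 2.57 FPKM. For sensing and relay, the receptor gene ETR2 had 18.03 and 6.95 FPKM, CTR1 45.3 and 27.2 FPKM, and EBF2 137 and 87.6 FPKM. HLS1, the acetyltransferase-like protein without which no hook forms, had 30.7 and 15.0 FPKM. The dark ratios of these 6 ran between 1.57 (EBF2) and 2.59 (ETR2), and the other 12 genes of the list had no listed dark difference.

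Red light lowered these 6 genes in rrc1-3 unequally. ACS5 was at 3.80 FPKM in red light against 32.7 FPKM in the dark, a ratio of 0.116, and HLS1 at 3.99 against 29.7 FPKM, a ratio of 0.134. ETR2 followed at 0.195, EBF2 at 0.293 and ACO1 at 0.357, while CTR1 kept a ratio of 0.559. Of the whole ethylene list, 6 genes were listed higher and none lower in dark-grown rrc1-3, and 12 were listed lower and none higher in rrc1-3 after red light. The 6 are the members themselves, and over all genes 3114 of 5630 listed in the dark table were higher and 2116 of 5711 in the light table lower. Among those that red light lowered without a listed dark difference were EIN3 (109 FPKM in red light and 139 FPKM in the dark), ERS1 (25.3 and 78.9), ERS2 (4.41 and 18.1), ACS8 (0.132 and 4.33) and ARGOS (17.4 and 56.9). In red light the authors' deposited table of rrc1-3 against Col-0 listed ACO1 alone of the 18, at 1.90 FPKM in rrc1-3 and 1.12 FPKM in Col-0.

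Auxin genes formed a further group of 13. TAA1, which converts tryptophan to indole pyruvate, had 23.2 FPKM in rrc1-3 and 11.9 FPKM in Col-0 in the dark, and YUC3 and YUC9, whose products make auxin from it, had 7.96 and 3.69 FPKM and 0.800 and 0.307 FPKM. Of the kinases that direct the PIN auxin carriers, 3 related ones were present: WAG2 with 51.0 and 22.3 FPKM, WAG1 with 19.0 and 9.25 FPKM, and PID with 11.3 and 5.13 FPKM. Red light separated the kinases, with ratios in rrc1-3 of 0.156 for WAG1, 0.345 for WAG2 and 0.508 for PID. Of the SAUR family of small auxin-induced growth genes, AT4G09530 had the largest dark ratio, 6.06. The SAUR genes AT1G19830 and AT1G19840 had dark ratios of 1.84 and 2.64 and light ratios of 0.433 and 0.460. On the auxin list of 26, which holds TAA1 and YUC9, 6 genes were listed higher and 9 lower in dark-grown rrc1-3. In rrc1-3 after red light 1 was listed higher and 13 lower, and between genotypes in red light 6 were listed higher in rrc1-3 and 1 lower.

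Cell wall genes were the largest class, with 35 members, a median dark ratio of 2.12 and a median light ratio of 0.434. The classes named here were put together after the values were seen, and ARF18 and IAA20 stand in both the auxin and the transcription class. XTH15, which cuts and rejoins xyloglucan in growing walls, had 1839 FPKM in rrc1-3 and 1164 FPKM in Col-0 in the dark, and was at 118 FPKM in red light against 1776 FPKM in the dark in rrc1-3. That light ratio of 0.0664 was the lowest of the wall genes. EXPA9, an expansin, had a light ratio of 0.161 and dark values of 197 and 131 FPKM. The endoglucanase genes CEL1 and CEL2 had 177 and 80.5 FPKM and 25.3 and 5.92 FPKM in rrc1-3 and Col-0 in the dark, and light ratios of 0.324 and 0.206. EXO, which promotes growth downstream of brassinosteroids, had 363 and 176 FPKM in the dark and a light ratio of 0.395.

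Pectin enzymes in the class included the pectate lyase-like PMR6 (43.1 and 11.8 FPKM in rrc1-3 and Col-0 in the dark), the pectin methylesterase genes PME12, PME32, PME41 and PME47, and PMR5. PME47 had a dark ratio of 7.14, from 3.76 FPKM in rrc1-3 and 0.526 FPKM in Col-0. Extensin-type structural proteins were also present, LRX2, LRX5 and LRX6 among them. On the cell wall growth list of 26, to which XTH15 and XTH33 belong, 8 genes were listed higher and 1 lower in dark-grown rrc1-3. In rrc1-3 in red light 9 of that list were listed higher and 9 lower.

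Lipid genes included the most abundant transcript of the set. LTP2, a lipid transfer protein of the cuticle, had 7099 FPKM in rrc1-3 and 2610 FPKM in Col-0 in the dark. Further members were the lipid transfer-like AZI1 (136 and 22.2 FPKM), FAR1, which makes fatty alcohols of suberin (280 and 172 FPKM), ADS4, a desaturase-like protein (8.56 and 1.00 FPKM), and SQE2 and SMO1-2 of sterol synthesis. The 12 lipid genes had a median dark ratio of 2.54 and a median light ratio of 0.538. CYP96A5, at 2.01 FPKM in red light and 25.8 FPKM in the dark in rrc1-3, had a ratio of 0.0779, and 2 of the 12, FAR1 with it, were at or under 0.25.

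Transcription regulators counted 31, with a median dark ratio of 2.43 and a median light ratio of 0.338. BBX23, a B-box protein that promotes photomorphogenesis together with HY5, had 35.0 FPKM in rrc1-3 and 7.16 FPKM in Col-0 in the dark. In rrc1-3 it was at 0.882 FPKM in red light against 33.9 FPKM in the dark, a ratio of 0.0260. The bHLH genes HEC1 and HEC2, whose products act in carpel development and bind PIF proteins, had 23.9 and 3.25 FPKM and 39.3 and 11.7 FPKM in rrc1-3 and Col-0 in the dark. Their light ratios were unlike, 0.614 for HEC1 and 0.197 for HEC2. Of the growth-regulating factor genes GRF7, GRF2 and GRF8, GRF7 was lowered furthest, to 3.88 FPKM in red light against 62.5 FPKM in the dark. GATA4, a zinc finger factor, was the most abundant regulator, with 192 and 99.8 FPKM in the dark in rrc1-3 and Col-0 and a light ratio of 0.225.

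Smaller groups followed the same rule. PORB, the light-dependent reductase of chlorophyll synthesis, had 731 FPKM in rrc1-3 and 170 FPKM in Col-0 in the dark, and LIL3:2, a light-harvesting-like protein, had 396 and 170 FPKM. Both were lowered mildly by red light in rrc1-3, at ratios of 0.532 and 0.652. No gene of a list of 21 photosynthesis genes was a member, although 15 of them were listed higher in dark-grown rrc1-3, since 19 of the 21 were listed higher in rrc1-3 after red light and none lower. The class labelled sulfur deficiency held LSU3, SDI1 and the sulfate transporter gene SULTR3;5. Their dark ratios were 8.16, 7.45 and 3.503, at low levels of 3.87, 0.915 and 8.07 FPKM in rrc1-3. GA20OX2, which makes gibberellin precursors, had 4.29 and 1.26 FPKM in rrc1-3 and Col-0 in the dark.

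The largest dark ratios belonged to transcripts that Col-0 hardly had. AT5G37970, of a methyltransferase family, had 2.02 FPKM in rrc1-3 and 0.0575 FPKM in Col-0, AT4G26390, a probable pyruvate kinase, 2.12 and 0.0827 FPKM, and the receptor-like AtRLP33 1.70 and 0.0980 FPKM. At such levels few fragments stand behind the Col-0 value. The lowest light ratio was that of AT5G57760, a gene of unknown function, at 2.74 FPKM in red light and 114 FPKM in the dark in rrc1-3. It had 118 FPKM in rrc1-3 and 37.3 FPKM in Col-0 in the dark. Of the 21 fixed lists, 13 held no member, the circadian clock (21 genes) and light signalling (30 genes) lists among them. An empty list speaks for its own genes alone, and the members BBX23, HEC1 and HEC2 were not on the light signalling list. The 4 genes left out by name, of which 2 met the ratios, could not count as members of any list. DIN11 was the single member from 23 genes induced by darkness and sugar starvation, of which 12 were listed lower in dark-grown rrc1-3.

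**Figure D2:**
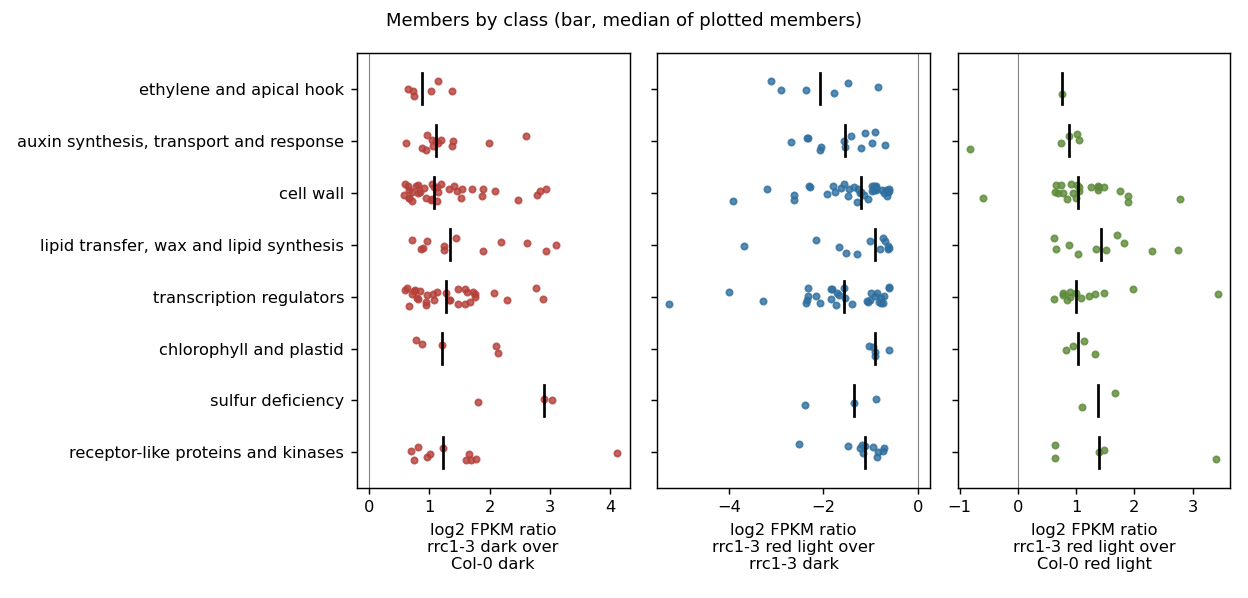
Each point is a gene of the class named at the left, and each panel gives a log2 FPKM ratio; the black bar is the median of the plotted genes. The first 2 panels show ratios that the rule fixed to the right and to the left of 0; in the third, which holds listed genes alone, all but AT5G02760 and PME41 lie to the right of 0.

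The genotype difference in red light was not itself a criterion, although the rrc1-3 red light libraries entered the light ratio. The authors' deposited table for red light listed 160 of the 312 genes, 157 higher in rrc1-3 (50.3% of the 312, against 31.3% of the 2291 genes) and 3 lower (against 18.5%). Among the 1174 other genes raised in dark-grown rrc1-3, 46.9% were listed higher in red light and 3 genes lower. The members' share was thus close to that of other mutant-raised genes. The median red light ratio of the listed members was 2.03, and the same genes had a median dark ratio of 2.201. The ratio was larger in red light for 60 of them and smaller for 100. The 152 genes not listed in red light had a median dark ratio of 2.08 and a median light ratio in rrc1-3 of 0.433, against 0.505 for the listed ones.

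By class, 10 of 12 lipid genes, 4 of 5 chlorophyll and plastid genes, 2 of 3 genes of the sulfur class and 21 of 35 cell wall genes were listed higher in red light. Of the 31 regulators 13 were listed higher, of the 13 auxin genes 4 and of the 6 ethylene genes 1. The largest red light ratio was that of BBX23, 10.8, from 0.854 FPKM in rrc1-3 and 0.0790 FPKM in Col-0. LTP2 had 3840 FPKM in rrc1-3 and 1181 FPKM in Col-0 in red light, PORB 365 and 146 FPKM, and XTH15 115 and 73.2 FPKM. AtRLP33 (10.6), AKT5, a probable potassium channel (7.76), PME47 (6.92), AT2G25130 (6.78), ADS4 (6.71), AT1G21525 (6.52) and AT1G06330 (6.25) had the next largest ratios. Few fragments stand behind a Col-0 value as low as that of BBX23. AtRLP33 and PME47 were under 1 FPKM in Col-0 already in the dark.

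The 3 genes that were lower in rrc1-3 in red light had all been higher in the dark. AT5G40590, of a cysteine- and histidine-rich C1 domain family, had 2.28 FPKM in rrc1-3 and 10.02 FPKM in Col-0 in red light, against 4.52 and 1.81 FPKM in the dark. AT5G02760, a probable protein phosphatase 2C, had 13.0 and 23.0 FPKM in red light and 37.1 and 24.3 FPKM in the dark. PME41 had 5.44 and 8.24 FPKM in red light and 9.24 and 5.39 FPKM in the dark. Each of these FPKM levels is a single value per group.

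**Figure D3:**
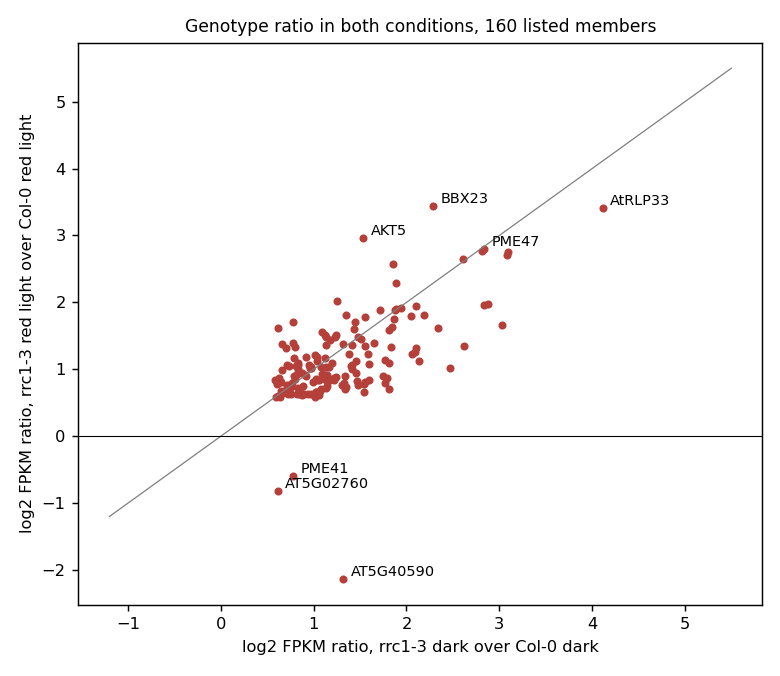
Each point is 1 of the 160 members listed in the red light table, with the log2 FPKM ratio of rrc1-3 over Col-0 in the dark (horizontal) and in red light (vertical); the grey line marks equal ratios. All lie above 0 on the vertical axis but AT5G40590, AT5G02760 and PME41, and no ratio lies close to 0 because the table lists called genes alone.

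For the 160 genes the ratio of red light over dark in Col-0 was put together from the 3 expression tables used here, whose libraries it shares. Its median was 0.541, against 0.505 for rrc1-3 in the same genes. It was under 1 for 147 of the 160, at or under the light ratio of the rule for 115 and over 1 for 13. The product is divided by the red light ratio, which was at least 1.495 for the 157 genes listed higher there. Values under 1 thus follow in part from being listed. No such ratio could be formed for the 152 genes not listed, so the counts do not describe the 312 as a whole. For 4 genes the FPKM of the same rrc1-3 red light libraries differed between 2 tables by more than 1.5-fold, namely GATL1, LRX5, NPR5 and AT5G26960. For the rrc1-3 dark libraries a difference of more than 1.5-fold held for AT4G06744 (34.5 and 3.68 FPKM) and NPR5 (7.34 and 3.28). It also held for ERF10 (2.84 and 1.74) and DAU2 (0.484 and 3.40). In the other 308 genes the dark values of the tables differed by a factor of 0.964 to 0.967. For the genes named here ratios put together across tables cannot be read, although they stayed in the medians above. The ratios of the rule and the red light ratio were each taken within a table. That does not show which table is right for these genes.

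A second measure with values per library came from the splicing tables, which count reads at the junctions of listed introns and exons. A gene's reads at those positions can follow its level, but rest on the listed positions alone and did not always follow FPKM. In the dark, 24 of 31 members with a listed position had more reads, as a share of the reads of the table, in all 3 rrc1-3 libraries than in all 3 Col-0 libraries (43.8% of the 4283 genes of the table did). The other 7 overlapped. Of these, AHK4 (0.788), PUB44 (0.832), NEK3 (0.918) and AT4G15160 (0.951) had a mean ratio under 1, against their deposited FPKM. PLDBETA1, ARF18 and HSFA3 had one over 1. In rrc1-3, 13 of 13 members had a lower share of the table's reads in all 3 red light than all 3 dark libraries. This held for 36.7% of the 643 genes of that table. For PLDBETA1 it depended on the scaling. Its reads overlapped, with 190, 161 and 150 in red light and 196, 186 and 134 in the dark. Scaled to library size over the 1817 genes fitted below, its values overlapped too. They were 267, 224 and 211 in red light and 294, 252 and 236 in the dark. Both contrasts chose the members, and nothing more is read from these counts. In red light 17 of 26 members were higher in all 3 rrc1-3 libraries (38.4% of 4153 genes), AT5G20950 was lower in all 3 (24.8%) and 8 overlapped.

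Positions counted in all 12 libraries were available for 10 members, and edgeR's quasi-likelihood test was fitted on all 1817 genes with such positions, with Benjamini and Hochberg adjustment. In red light 6 of the 10 were higher in rrc1-3 than in Col-0 (34.9% of the 1817 were called higher) and none lower (30.2%). PMR6 had 328, 377 and 310 reads in the rrc1-3 libraries and 38, 54 and 54 in the Col-0 libraries, a log2 difference of 2.59 ± 0.15 (SE, adjusted p = 5.01e-10 in edgeR). The reads of the genotypes did not overlap. AT1G67590, a remorin family gene, had 122, 164 and 130 reads in rrc1-3 and 12, 24 and 9 in Col-0, a log2 difference of 2.99 ± 0.25 (adjusted p = 2.80e-08 in edgeR). MLO4, a membrane protein of root touch responses, rose by 1.32 ± 0.16, AT5G18610, a kinase gene, by 0.97 ± 0.14, FAX4 of plastid fatty acid export by 0.86 ± 0.25 and PORB by 0.77 ± 0.18, all on the log2 scale. PORB here rests on 94 to 103 reads in rrc1-3 and 46 to 54 in Col-0 at exon E005 alone. HSFA3, AHK4, PLDBETA1 and AT4G15160 did not pass, with HSFA3 at 0.85 ± 0.37 (adjusted p = 0.0504 in edgeR) and AHK4, a cytokinin receptor, at -0.13 ± 0.27.

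The response of Col-0 to red light was not a contrast of the rule, but its dark Col-0 libraries had entered the dark ratio. In the same fit it was lower in red light for 6 of the 10 (15% of the 1817 genes were called lower) and higher for none (14.2%). MLO4 had 56, 70 and 53 reads in Col-0 in red light and 182, 168 and 177 in Col-0 in the dark, a log2 change of -1.42 ± 0.16 (adjusted p = 1.62e-06 in edgeR). AT1G67590 changed by -1.66 ± 0.29, HSFA3 by -1.02 ± 0.36, FAX4 by -0.90 ± 0.25, AHK4 by -0.86 ± 0.26 and PMR6 by -0.47 ± 0.17, and the last lay near the threshold (adjusted p = 0.0492 in edgeR). HSFA3 had a Col-0 dark library of 116 reads beside others of 48 and 54. Without the third Col-0 red light library 2 of the 10 passed.

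The difference of the light responses between genotypes was tested in the same way, although 3 of its 4 groups had entered the rule, so that it is no independent test. In edgeR 0 of 10 interaction terms passed, 0 at an unadjusted p under 0.05 and 0 in DESeq2, and 1.1% of the 1817 genes passed. The term was 0.22 ± 0.21 for MLO4, -0.09 ± 0.38 for AT1G67590 and 0.36 ± 0.25 for PORB, on the log2 scale as rrc1-3 minus Col-0. With errors of this size, differences of such magnitude cannot be resolved from 3 libraries. Not all 10 members showed the pattern of the rule at these positions. Scaled to library size, PORB reads averaged 139.5 in rrc1-3 in red light and 135.4 in the dark, so they did not fall. In the dark, AHK4 averaged 99.6 in rrc1-3 and 120 in Col-0, and AT4G15160 501.7 and 500.6. PLDBETA1 and HSFA3 overlapped between genotypes in the dark, while MLO4, FAX4, AT1G67590, PMR6 and AT5G18610 showed both differences without overlap.

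**Figure D4:**
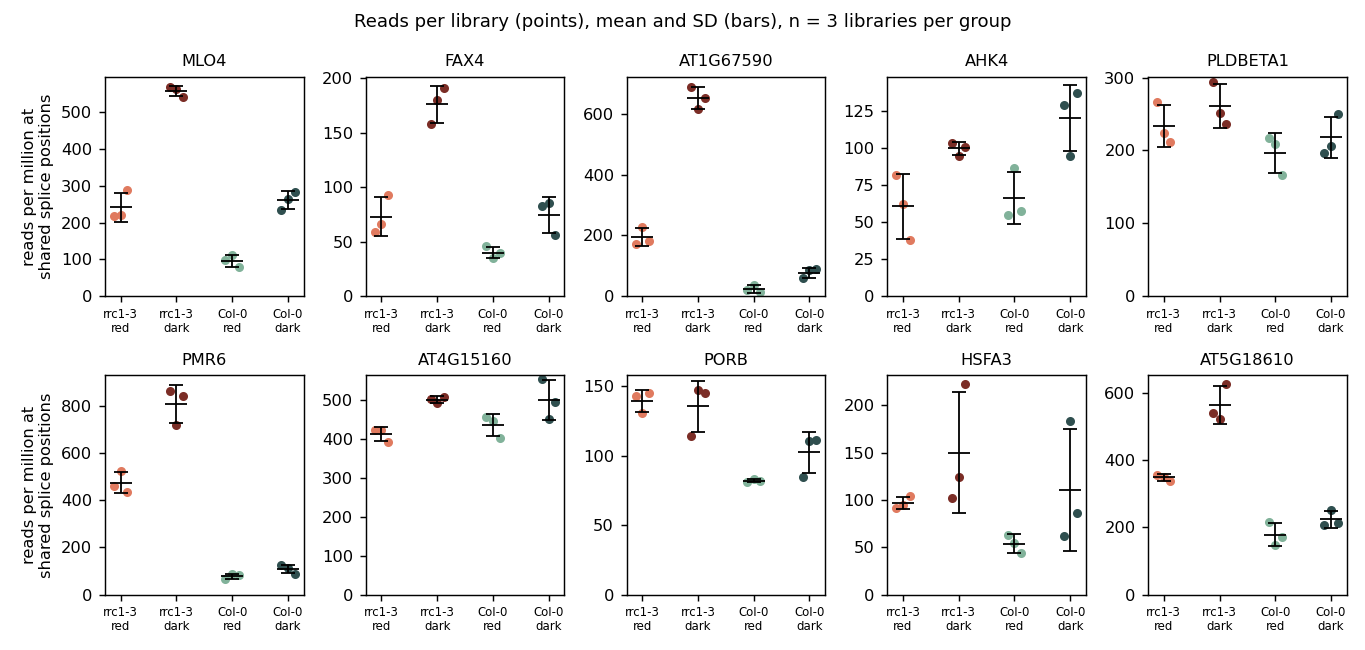
Reads, scaled to library size, at the splice positions counted in all 12 libraries, for the 10 members that have them; each point is a library, and bars give the mean and SD of 3 libraries per group. MLO4, AT1G67590, PMR6 and AT5G18610 lie higher in rrc1-3 than in Col-0 in both conditions, while PLDBETA1 and AT4G15160 overlap between genotypes.

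A fit to the red light table alone, added after the data were seen, took in 25 members. It called 15 higher in rrc1-3 (27.8% of 4148 genes) and 3 lower (28.3%), among the higher ones HCAR, which returns chlorophyll b to chlorophyll a (log2 1.36 ± 0.16), and AT3G54830, an amino acid transporter family gene (2.204 ± 0.15). The 3 lower were Fes1B (-0.94 ± 0.32), AT5G20950 (-0.55 ± 0.10) and AT4G15160 (-0.32 ± 0.11). For AT4G15160 and AT5G20950 this went against the deposited FPKM, which was 2.87-fold and 1.64-fold higher in rrc1-3. Level at the listed splice positions and whole-gene FPKM therefore did not always point the same way.

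Splicing itself was listed for few of these genes. A feature was listed between genotypes in the dark for 31 members (9.94%, against 18.5% of the 2291 genes), between genotypes in red light for 26 (8.33%, against 18%) and between light and dark in rrc1-3 for 13 (4.17%, against 6.29%). Together 47 members had a feature in any table, 14 in both genotype tables and 3 in all. The members' smaller number of introns moves with these shares, and its part in them was not tested. Features were listed by the authors because their groups differed, so that a high number of passing tests is built in.

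In red light, where the genotype contrast had not chosen the members, 35 features of members were listed. Retention or inclusion was higher in rrc1-3 for 11 of them (31.4%, against 59.5% of all 6003 features) and lower for 24. A junction test in edgeR, which compares spliced with unspliced reads over the libraries, called 5 features higher (36% of all features were) and 17 lower (20.1%). Without the third Col-0 red light library 10 features passed in either direction, and DESeq2 called 10. FAX4 intron I001 was retained at 3.53%, 2.08% and 5.34% in rrc1-3 and 23.1%, 6.67% and 35.8% in Col-0, a log2 odds change of -2.66 ± 0.77 (adjusted p = 0.00890 in edgeR). The genotypes did not overlap, but the Col-0 values ranged widely on 17 to 21 spliced reads each. PMR6 intron I001 was retained at 6.63 ± 1.52% in rrc1-3 and 15.7 ± 8.27% in Col-0 (SD, n = 3 each), with overlapping libraries.

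PORB exon E005 was included at 58.6%, 70.2% and 68.0% in rrc1-3 and 87.0%, 82.5% and 90.8% in Col-0 in red light (log2 odds -1.77 ± 0.43, adjusted p = 0.00289 in edgeR). All rrc1-3 libraries lay below all Col-0 libraries. Few PORB reads stand at this exon. In dark-grown rrc1-3 it held 76, 109 and 82 reads, against 8812, 12672 and 11650 at all listed PORB positions of the dark contrast. The percentages describe this minor position and not PORB transcripts as a whole. In the opposite direction, intron I009 of AHK4 was retained at 44.3%, 42.2% and 55.6% in rrc1-3 and 22.6%, 24.8% and 29.9% in Col-0 (log2 odds 1.28 ± 0.48, adjusted p = 0.0333 in edgeR), again without overlap. The AHK4 call was kept in 4 of 9 alternatives, with adjusted p-values up to 0.114 in them. HCAR, MLO4, AT3G54830 and CTR1 had introns called lower, and PLDBETA1, AT5G20950 and AT1G65920 a feature called in each direction. Some of these calls were weak as well: CTR1 I006 was kept in 3 of 9 alternatives, and HCAR I012 and AT1G65920 I007 in 5 of 9. PLDBETA1 I001 and the AT5G20950 features E010 and I010 were kept in all 9.

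In the contrasts that chose the members the splicing values are given as a description. In the dark 43 features of members were listed, 16 higher and 27 lower in rrc1-3 (37.2% higher, against 47.7% of all 6244), and the junction test called 6 higher (25.4% of all) and 19 lower (26.5%). In rrc1-3 after red light 20 features were listed, 7 higher and 13 lower (35% higher, against 73.1% of all 843), with 6 called higher (63.7%) and 13 lower (22.8%). Nothing is read from these counts, since the libraries are those of the rule.

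CYP59 encodes a nuclear cyclophilin that binds RNA and the tail of RNA polymerase II. Near its end, 3 introns were retained less in rrc1-3 in red light than in the dark. GLIP7 and AT4G33120 also had several introns called, all lower in rrc1-3 than in Col-0 in the dark. Some of these calls were weak, with AT4G33120 I005 kept in 3 of 9 alternatives and GLIP7 I001 in 4 of 9. GLIP7 I002 and AT4G33120 I002 and I004 were kept in all 9. In the dark CYP59 had 2.35 FPKM in rrc1-3 and 0.586 FPKM in Col-0, and within rrc1-3 it had 0.175 FPKM in red light against 2.27 FPKM in the dark. At its listed splice positions the differences were smaller. In the dark it had 377, 400 and 342 reads in rrc1-3 and 236, 172 and 176 in Col-0. The ratio was 1.90 after scaling to the reads of the table. In the light response table rrc1-3 had 234, 235 and 268 reads in red light and 374, 457 and 382 in the dark. The ratio of red light over dark was 0.421 after scaling to the reads of that table, and its size depends on this scaling. Intron I011 was retained at 43.7%, 41.3% and 42.5% in rrc1-3 and 15.3%, 22.5% and 23.1% in Col-0 in the dark. In rrc1-3 in red light it was retained at 8.33%, 9.43% and 9.57%. The 3 groups did not overlap, and dark-grown rrc1-3 was the highest. Between genotypes in the dark, CYP59 introns I010 and I001 did not pass (adjusted p = 0.181 and 0.114 in edgeR). Introns I010 and I009 were retained at 15.3 ± 2.16% and 9.25 ± 6.32% in rrc1-3 in red light, against 41.3 ± 6.58% and 26.9 ± 2.76% in rrc1-3 in the dark (SD, n = 3 each). The sequences of the 3 introns are shown 5′ to 3′ on the coding strand because retention of all 3 was lower in red light, with the first and last 2 bases in capitals as the splice sites; they lie between coding exons of chromosome 1, plus strand, at chr1:20058914-20059002 (I011), chr1:20058719-20058807 (I010) and chr1:20058584-20058677 (I009) of TAIR10.1 (RefSeq).
CYP59 I011: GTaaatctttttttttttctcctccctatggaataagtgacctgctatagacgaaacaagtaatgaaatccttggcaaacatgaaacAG
CYP59 I010: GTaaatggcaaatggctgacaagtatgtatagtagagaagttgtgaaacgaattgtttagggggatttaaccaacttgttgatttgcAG
CYP59 I009: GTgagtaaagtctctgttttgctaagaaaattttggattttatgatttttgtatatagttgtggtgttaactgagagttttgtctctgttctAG
All 3 began with GT and ended with AG, as did 98.8% to 99.1% of the introns listed in the splicing tables, and they were 89, 89 and 94 bases long with a GC content of 34.8%, 37.1% and 30.9%.

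Other introns differed in either direction. In the dark, GATA4 intron I001 was retained at 7.67 ± 1.34% in rrc1-3 and 2.404 ± 1.15% in Col-0, on 2558 to 3236 spliced reads per rrc1-3 library. PORB intron I002 went the other way, with 3.59 ± 0.21% in rrc1-3 and 6.98 ± 0.87% in Col-0, and FAX4 intron I001 likewise with 1.38 ± 0.76% and 11.4 ± 2.62% (SD, n = 3 each), all in the dark. After red light, retention in rrc1-3 was higher for HSD5 intron I003, at 33.3%, 27.0% and 25.7% in red light against 6.15%, 6.85% and 7.22% in the dark, and for AT1G48570 intron I006, at 19.4 ± 5.18% against 1.74 ± 2.25%. HSD5 encodes a hydroxysteroid dehydrogenase-like protein and had 12.6 and 7.71 FPKM in rrc1-3 and Col-0 in the dark. CTR1 intron I011 was lower, at 11.1 ± 2.38% in red light against 22.3 ± 4.87% in the dark in rrc1-3. The introns of opposite direction are set beside each other here, each from its coding strand and between coding exons, at chr3:22373558-22373634 plus strand (GATA4), chr4:13726422-13726499 plus strand (PORB), chr1:12066897-12066989 plus strand (FAX4) and chr4:6269244-6269324 plus strand (HSD5) of TAIR10.1 (RefSeq).
GATA4 I001: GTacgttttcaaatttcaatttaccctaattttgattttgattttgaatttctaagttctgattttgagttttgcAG
PORB I002: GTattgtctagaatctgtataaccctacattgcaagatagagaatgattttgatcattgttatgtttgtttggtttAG
FAX4 I001: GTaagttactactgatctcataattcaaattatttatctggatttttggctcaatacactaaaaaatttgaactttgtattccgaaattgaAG
HSD5 I003: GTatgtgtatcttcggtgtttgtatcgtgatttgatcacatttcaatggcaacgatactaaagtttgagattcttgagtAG

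**Figure D5:**
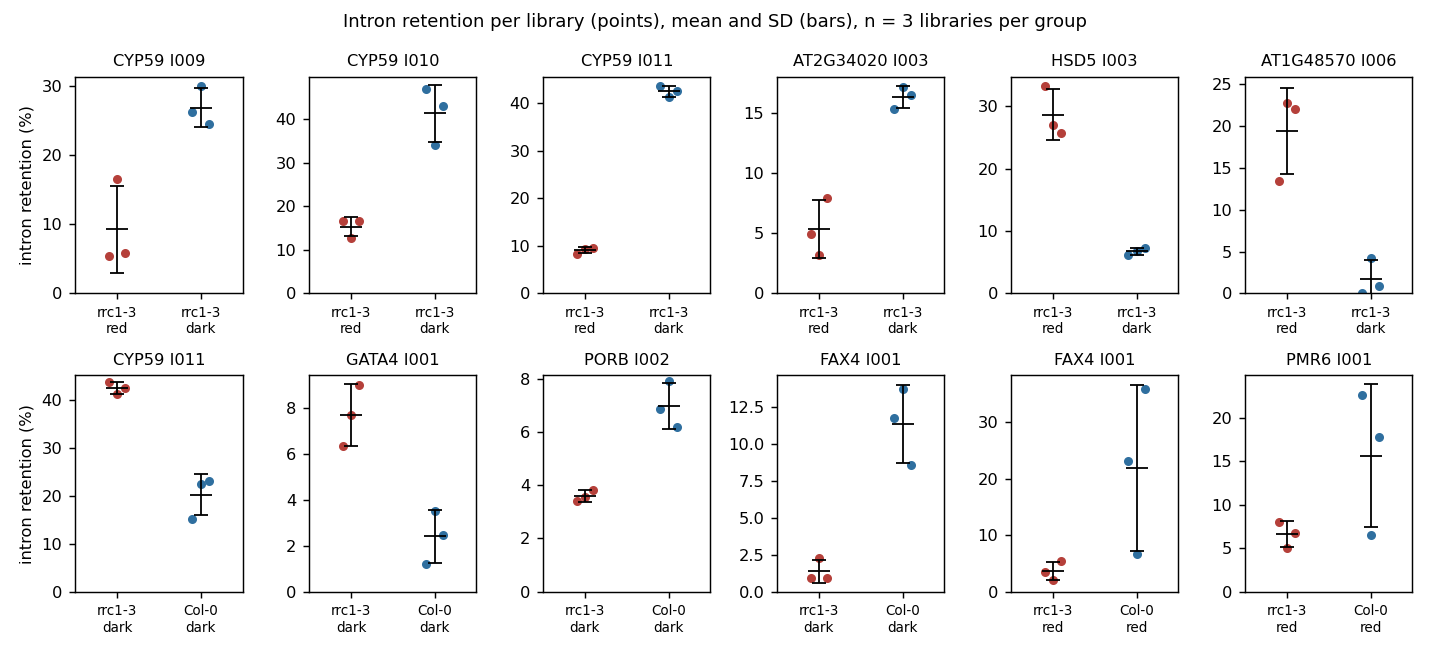
Intron retention in percent per library (points) with mean and SD of 3 libraries (bars); the upper row compares rrc1-3 in red light with rrc1-3 in the dark, and the lower row rrc1-3 with Col-0 in the dark or in red light as the axis labels say. CYP59 I011 is at 8.33% to 9.57% in red light-treated rrc1-3 and at 41.3% to 43.7% in dark-grown rrc1-3, and FAX4 I001 is lower in rrc1-3 than in Col-0 in both conditions.

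The promoters of the 312 genes, taken as 250 bases before to 50 bases after the annotated start, were searched on both strands for short motifs. CACATG, an E-box that PIF proteins can bind in Arabidopsis, was in 74 promoters, 23.7% (95% Wilson interval 19.3 to 28.7%). The share was 12.9% over 27443 promoters of the genome, 14.1% in the other genes raised in dark-grown rrc1-3, 13.2% in the 759 that were raised in the dark and further raised by light, and 20.1% in the other 668 genes lowered by red light. The members' share thus lay nearest to that of other light-lowered genes. CACGTG, the G-box, was in 34 promoters, 10.9% (7.90 to 14.8%), against 7.68% over all and 10.6% and 10.8% in those other raised and other light-lowered genes, and 13 members held both motifs.

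GATAAG, the I-box core of light-induced promoters, was in 9.62% (6.82 to 13.4%), against 14.6% over all promoters, 17.6% in the other raised and 20.5% in the other light-lowered genes. The remaining motifs were near the share of all promoters: CCGAC with 12.2% and 15.0%, AATATCT with 11.9% and 11.5%, ACGTGNC, which can overlap CACGTG, with 11.2% and 10.3%, CGTGCG with 2.24% and 1.96%, and CGTGTG with 5.13% and 6.52%. A match describes letters in a window and is neither a binding site nor a cause. Stretches around the motif are shown for genes of ethylene, auxin and gibberellin synthesis, the wall and the sulfur response, as examples of members with different roles. They run 5′ to 3′ on the strand of the gene, with the motif or its reverse complement CATGTG in capitals, from chr5:26332956-26333001 minus strand (ACS5), chr1:1104408-1104453 plus strand (YUC9), chr5:21056913-21057101 minus strand (GA20OX2), chr1:3481210-3481255 minus strand (XTH33), chr1:23112784-23112879 plus strand (LRX2) and chr3:18373148-18373188 minus strand (LSU3) of TAIR10.1 (RefSeq).
ACS5: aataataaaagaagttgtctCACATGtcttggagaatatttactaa
YUC9: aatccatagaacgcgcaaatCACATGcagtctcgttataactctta
GA20OX2: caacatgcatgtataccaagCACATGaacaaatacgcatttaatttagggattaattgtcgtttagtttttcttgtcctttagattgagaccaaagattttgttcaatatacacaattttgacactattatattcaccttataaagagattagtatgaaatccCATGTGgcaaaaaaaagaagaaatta
XTH33: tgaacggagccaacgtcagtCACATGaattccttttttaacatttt
LRX2: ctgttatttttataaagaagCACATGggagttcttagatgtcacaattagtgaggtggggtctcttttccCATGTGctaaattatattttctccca
LSU3: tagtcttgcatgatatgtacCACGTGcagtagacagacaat
CACATG began at position -169 from the annotated start in ACS5, -65 in YUC9, -200 and -57 in GA20OX2, -194 in XTH33, and -129 and -79 in LRX2, and CACGTG at -21 in LSU3.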

How the data were processed

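Total RNA of seedlings, depleted of rRNA, was sequenced in 12 libraries, and alignment used TopHat2, whose version is not given in the sources used here, and TAIR10, per the submitters' processing notes. Expression tables hold called genes alone, with 1 FPKM value per group and its log2 fold change, p-value, q-value and test score as deposited by the authors, in a Cuffdiff layout per the file headers. The dark and red light genotype tables list 5630 and 4031 genes, and that of the rrc1-3 light response lists 5711. The splicing tables, in an ASpli layout per the file headers, hold deposited counts of reads per junction or boundary and library, with the deposited fraction per group, its difference (a score) and an FDR. The columns with suffixes 4 to 6 were taken as replicates 1 to 3 of the group named in them. Depth at the listed features ran, by library, between 1299166 and 1704528 reads for the dark genotype contrast, 1490472 and 2095410 for red light, and 301098 and 538886 for the light response.

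Genes were selected by the ratio of FPKM values within a table, after leaving out organelle genes and 4 named genes, 2 of which met the ratios. The members and gene lists were chosen with earlier results of these data known. Gene counts per library had been planned for. Reads at splice positions (spliced plus mean boundary reads) took their place, on features with the same junctions in both genotype tables. Levels and splicing (features of at least 10 reads) were tested in edgeR 4.0.16 (R 4.3.3; TMM, glmQLFit, glmQLFTest) and again in DESeq2 1.42.0, with p-values adjusted over all genes or features tested at a threshold of 0.05. Scripts were tested on simulated data. Retention is boundary reads over boundary plus spliced reads. Same-numbered libraries deviated with correlations of -0.111 to 0.296, so numbers were not treated as pairs. Genes named were the 10 largest dark ratios, light falls and levels, up to 8 red light ratios each way, up to 4 members of each of 21 lists (322 genes), those at the edges of the rule, those passing in Col-0 and up to 10 splicing features a table, and others were named after their values were seen. Sequences came from RefSeq (TAIR10.1). Python 3.11.15, pandas 2.3.3, scipy 1.17.1, pysam 0.24.0 and matplotlib 3.10.9 were used.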

Additional observations from a re-analysis of the deposited data

How the results depend on the processing

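The depth behind FPKM is unknown, low members rest on few fragments, and splice-position levels exist for 10 members in all groups. With ratios of at least 2 and at most 0.5, 116 genes remained, with a median dark ratio of 2.92 and a median light ratio of 0.319; with at least 1 FPKM the medians were 2.09 and 0.480. CACATG in the 250 bases before the start alone was in 19.2% of promoters. The red light table alone called 18 members. Leaving out each library in turn gave 5 to 7 members called in red light (6 with all), 2 to 5 in the Col-0 light response (6 with all) and 0 in the interaction; the value of 2 came without Col-0 red light replicate 3. For splicing it gave 18 to 22 features in the dark (25 with all), 10 to 19 in red light (22 with all; 10 without Col-0 red light replicate 3) and 18 to 20 in the light response (19 with all). DESeq2 called 17 features in the dark, 10 in red light and 18 in the light response. Over all features it called 1946 in red light, against 3370 in edgeR. The replicate number as a block gave 7 members in red light, 5 in the Col-0 light response and 0 in the interaction, and 25, 20 and 19 features in the dark, in red light and in the light response, so that no count of member calls moved by over 1.5 times under the replicate block. No single value past the threshold changed sign. For single genes 473 of 508 level results and for single features 764 of 878 splicing results kept their side of the threshold, while 30 and 104 lost it.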
